A study of Canis lupus familiaris with 16 samples.

Results

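The insulin-like growth factor (IGF) system was described here through 10 genes, which were the ligands *IGF1* and *IGF2*, the receptors *IGF1R* and *IGF2R*, and the binding proteins *IGFBP2* to *IGFBP7*. They were taken by name from a table of read counts for 41818 genes in 16 canine soft tissue sarcomas, and all 10 were found in it. RNA came from formalin-fixed, paraffin-embedded pieces of tumors removed in routine practice. No normal tissue was compared here. By molecular identity there were 4 fibrosarcomas (FS, dogs aged 9 to 13 years), 6 peripheral nerve sheath tumors (PNST, 8 to 13 years) and 6 perivascular wall tumors (PWT, 2 to 14 years). The labels name no treatment, and each tumor is 1 sample. The dog aged 2 years carried S2-08, a PWT by molecular identity and an FS by histology, and S1-10 was a PNST by molecular identity and a PWT by histology. Because these 2 tumors were regrouped by their expression, the molecular groups are not independent of the measurements compared here. Labels of S1-04 and S1-05 (both PNST) were identical, so the 6 PNST may come from 5 dogs. Titles began with S1 in 3 of 4 FS, 5 of 6 PNST and 1 of 6 PWT, and with S2 in the others. By the study's methods, sequencing was done in 2 groups. The caption of a supplementary figure gives 3 runs for 9 tumors, which is the number of tumors with prefix S1. No label states that the prefix stands for the sequencing group. Counts on genes ranged from 507728 (S1-12, FS) to 4311876 (S1-03, PNST) per tumor. Levels are given as CPM, counts scaled to library size with TMM factors, which compares tumors for 1 gene and not genes with each other. In bulk tissue, fewer cells that express a gene and less RNA per cell cannot be told apart.

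Both ligands bind the receptor tyrosine kinase encoded by *IGF1R*, which signals through insulin receptor substrates to the PI3K-AKT-mTOR and RAS-MAPK pathways. The product of *IGF2R* takes up IGF2 for breakdown in lysosomes and carries no kinase. Binding proteins hold the ligands in tissue and blood and are cut by proteases such as PAPPA and PAPPA2, and IGF2 is known for high expression in several human sarcomas.

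Labels of the 3 types were first set against marker genes of the cells they are named after. Of 8 fibroblast markers, edgeR called 2 as higher in FS than in both other types (*COL1A1* and *COL3A1*), while 5 of the 8 had a positive and 3 a negative log2 fold change. Of all genes tested, 5.69% were called higher in that comparison. DESeq2 called 3 higher (*COL1A1*, *COL3A1* and *LUM*) and 1 lower (*DCN*) there, and *PDGFRA* lower in FS than in PNST. Their summed level was 26363 CPM in S1-02, 98414 CPM in S1-11, 26023 CPM in S1-12 and 17675 CPM in S2-06 among FS, with medians of 22610 CPM in PNST and 12872 CPM in PWT. Of 10 Schwann cell markers, 6 could be tested and 0 passed in edgeR as higher in PNST than in both other types, with 1 at an unadjusted p under 0.05 and 0 called by DESeq2. Since edgeR called 0% of all 15408 genes in that comparison, the count of 0 says nothing about Schwann cell markers. The sum of the 10 markers had a median of 339 CPM in PNST, 192 CPM in FS and 297 CPM in PWT, and *PMP22* contributed most to it in every type. All 6 tested had a positive log2 fold change in PNST against both and against PWT. In FS against PNST, 0 of the 6 had one, and edgeR and DESeq2 called *PMP22* lower in FS. Of all genes, edgeR called 6.93% in that comparison. Of 12 pericyte and smooth muscle markers, all tested, 0 passed in edgeR as higher in PWT than in both other types, and DESeq2 called 0. Over all 15408 genes, edgeR called 2.01% there, with 205 genes higher, so that a count of 0 of 12 lies near the share over all genes. Of the 12, 1 had a positive log2 fold change in PWT, with a median of -0.86, and the 3 at an unadjusted p under 0.05 (*ACTA2*, *CSPG4* and *MYH11*) were on the lower side. In FS against both, 3 were called higher (*ACTA2*, *CNN1* and *MCAM*), where 5.69% of all genes were called higher. In S1-02, S1-11, S1-12 and S2-06, *ACTA2* was at 9.19, 210, 79.9 and 29.0 CPM and *CNN1* at 3.53, 56.2, 16.3 and 1.87 CPM. *MCAM* was at 20.5, 164, 59.9 and 65.5 CPM in the same order. For all 3 genes S1-11 was highest and S1-02 lay within the range of the other types, as did S2-06 for *ACTA2* and *CNN1*. The sum of the 12 markers had medians of 1286 CPM in FS, 826 CPM in PNST and 579 CPM in PWT, with *PDGFRB* contributing most.

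A gene was called when edgeR's quasi-likelihood test gave an adjusted p-value (Benjamini-Hochberg over 15408 genes) under 0.05 and the log2 fold change was above 1 or below -1. Of the 10 genes, 9 passed the count filter and were tested, and *IGFBP2* did not pass. In FS against both other types, 3 were called, *IGF1*, *IGF2* and *IGFBP4*, all higher in FS, while 9.31% of all genes tested were called and 5.69% were called higher. The median log2 fold change of the 9 genes was 0.41 against 0.0045 over all genes tested. In FS against PWT, 2 were called higher, *IGF1* and *IGFBP4*, where 11% of all genes were called and 6.02% called higher. None of the 9 was called in FS against PNST, where 6.93% of all genes were called. The same count of 0 was found in PWT against both other types (2.01% of all genes called), in PNST against both (0%) and in PNST against PWT (0.0649%). At an unadjusted p under 0.05 stood 6 of the 9 genes in FS against PNST, 3 in PWT against both, 2 in PNST against both and 1 in PNST against PWT. Over all 15408 genes, 3559, 3441, 2413 and 3006 stood there in the same order. DESeq2's Wald test called 4 of the 10 genes in FS against both (*IGF1*, *IGFBP2* and *IGFBP4* higher, *IGFBP3* lower), where it called 2087 of 21238 genes. It called 3 in FS against PWT (*IGF1*, *IGFBP2* and *IGFBP4*, with 2457 of 19942 genes), 3 in FS against PNST (*IGF1*, *IGFBP3* and *IGFBP4*, with 1767 of 20642) and 2 in PWT against both (*IGF1* and *IGFBP2*, with 880 of 16597). In PNST against both and in PNST against PWT it called 0 of the 10, with 290 of 18710 and 519 of 15115 genes. Comparisons that share tumors are not independent of each other. When tumors were grouped by histology, edgeR called 0 of the 9 in any of the 6 comparisons, but it also called few genes at all, with 202 of 15408 in FS against both, 5 in FS against PWT and 0 in the other 4.

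**Figure D1:**
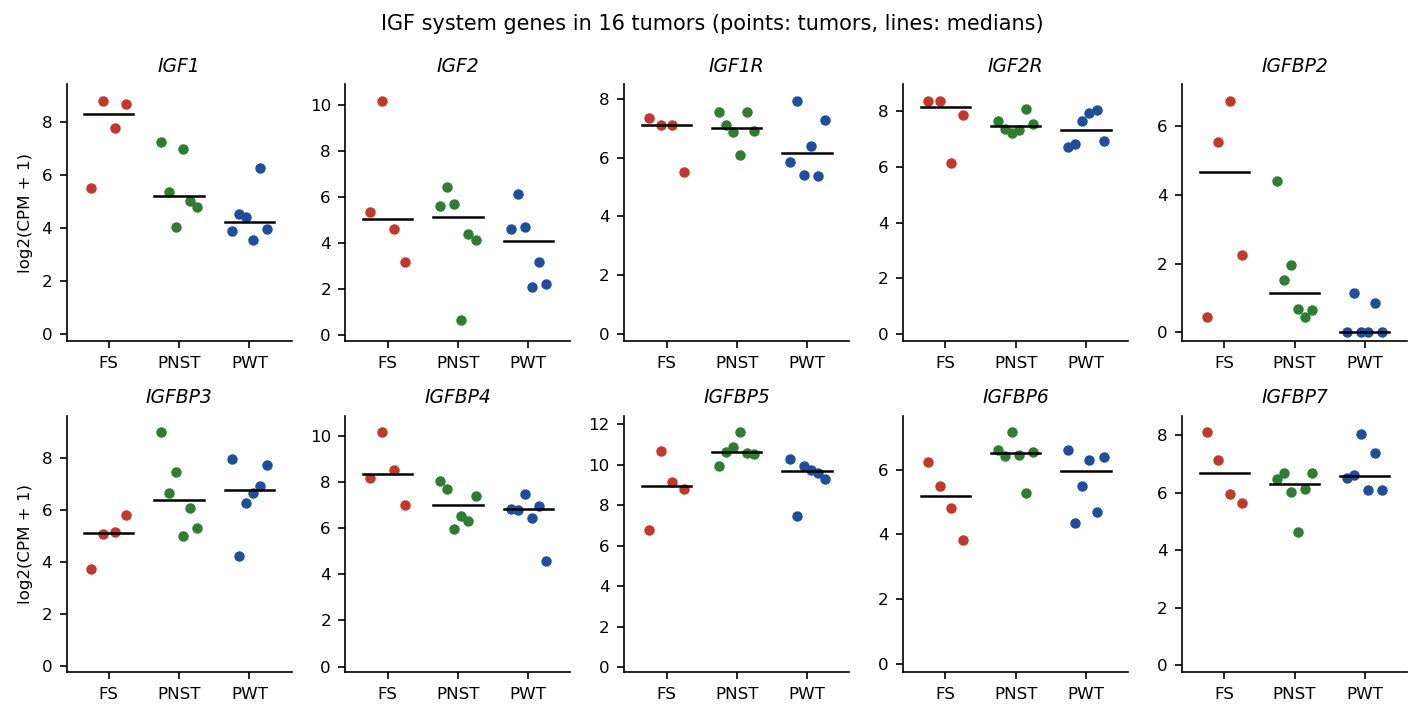
Level of each of the 10 genes as log2(CPM + 1) on the vertical axis, with 1 point per tumor in 4 FS, 6 PNST and 6 PWT and a line at the median. *IGF1* and *IGFBP4* each had 3 FS points above the 12 other tumors, *IGF2* had 1, and *IGFBP2* had 4 PWT points at 0.

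**Figure D2:**
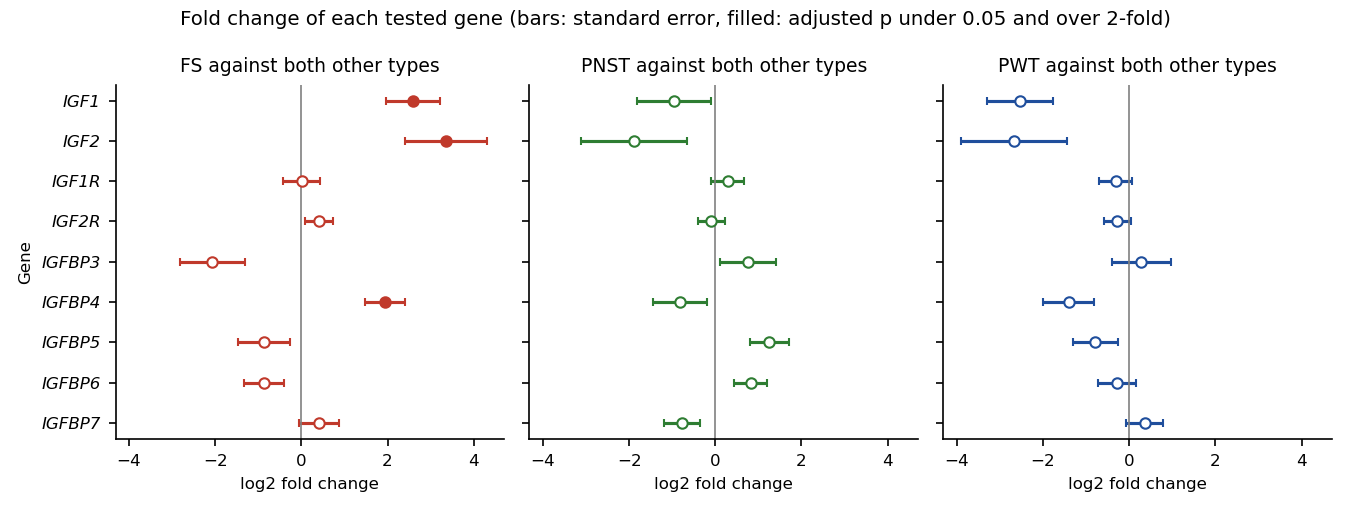
Log2 fold change with its standard error for the 9 tested genes in each tumor type against both other types. Filled points, at 2.60 for *IGF1*, 3.35 for *IGF2* and 1.94 for *IGFBP4*, were called, and all lie in the FS panel.

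*IGF1* encodes a ligand made in liver under growth hormone and also locally in connective tissue. Its level was 44.5 CPM in S1-02, 447 CPM in S1-11, 221 CPM in S1-12 and 413 CPM in S2-06, the 4 FS. The 6 PNST ran from 15.5 CPM (S1-05) over a median of 36.0 CPM to 153 CPM (S1-03), and the 6 PWT from 10.8 CPM (S2-08) over 17.7 CPM to 75.7 CPM (S2-09). S1-11, S1-12 and S2-06 thus stood above each of the other 12 tumors, whereas S1-02 lay among the PNST and within the range of PWT, so that the groups overlapped. All 4 FS lay above the median of the other 12 tumors. *IGF1* reached a log2 fold change of 2.60 ± 0.63 (SE) when FS were set against both other types (edgeR adjusted p = 0.0137) and 3.43 ± 0.73 against PWT (adjusted p = 0.00762). Against PNST it was 2.09 ± 0.70, which edgeR did not call (adjusted p = 0.0777), but called without S1-02 at 2.45 (adjusted p = 0.0354, range over alternatives 0.0244 to 0.441). DESeq2 called it against PNST with all tumors, at 2.14 (adjusted p = 0.0244). In PWT against both, edgeR did not call *IGF1* either, at -2.53 ± 0.77 (adjusted p = 0.0771), although 6 of 6 PWT lay below the median of the other tumors. DESeq2 called it there at -2.54 (adjusted p = 0.00561), and so did edgeR with 1 mean per type, at -2.38 (adjusted p = 0.0333). *IGF1* in PNST against PWT gave 1.34 ± 0.66 (adjusted p = 0.273) and was not called. Leaving out S1-11 ended the call in FS against both (2.27, adjusted p = 0.0623, range over alternatives 0.00169 to 0.112), and histology groups gave 2.19 (adjusted p = 0.112). Against PWT, *IGF1* was called without S1-11 too, at 3.11 (adjusted p = 0.025), and not with histology groups, at 2.93 (adjusted p = 0.0966, the highest over alternatives, with 3.38e-05 the lowest). With the title prefix as a term *IGF1* in FS against both was at 2.64 (adjusted p = 0.012), and within prefix S1 that of FS against PNST was 1.71 (adjusted p = 0.268).

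*IGF2* encodes the fetal growth ligand, whose gene is imprinted in many mammals. Among FS its level was 39.9 CPM in S1-02, 1143 CPM in S1-11, 23.6 CPM in S1-12 and 7.96 CPM in S2-06. In PNST it ran from 0.595 CPM (S1-09) over a median of 33.7 CPM to 84.5 CPM (S1-04), and in PWT from 3.23 CPM (S2-08) over 15.8 CPM to 69.2 CPM (S2-03). S1-11 was far above the other 15, and the remaining FS lay inside the range of both other types. The medians of FS and PNST were close, at 31.8 CPM and 33.7 CPM. *IGF2* reached 3.35 ± 0.94 on the log2 scale in FS against both (edgeR adjusted p = 0.0305), with 3 of 4 FS above the median of the other tumors. It rested on S1-11, since without this tumor the value was -0.32 (adjusted p = 0.887, range over alternatives 0.0167 to 0.887). The call was also lost with the title prefix as a term (2.77), with no count filter (3.34), without S1-10 and S2-08 (3.20), with thinned counts (3.25) and with histology groups (2.93). Against PNST it was 3.05 ± 1.19 (adjusted p = 0.13) with S1-11 and -0.62 without it. Against PWT it was 3.75 ± 1.23 (adjusted p = 0.054), and 0.081 without S1-11. It was called there without S1-02 (4.13), S1-09 (3.75), S1-12 (4.13), S2-03 (4.65) or S2-06 (4.20). PNST against PWT gave 0.70 ± 1.09 (adjusted p = 0.742). DESeq2 gave no adjusted p for *IGF2* in FS against both or between any 2 types. In PNST against both its adjusted p was 0.652 and in PWT against both 0.674. Counts behind these levels ranged from 2 (S1-09) to 2115 (S1-11).

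The tumor S1-11, from a dog aged 13 years, was also set apart by other genes of the pathway list. Single tumors stood out for further genes of the list, such as S2-06 (FS) for *IGF2BP1*, at 46.4 CPM with at most 1.82 CPM elsewhere, and for *IGF2BP3*, at 33.2 CPM with at most 4.38 CPM elsewhere. S1-02 (FS) did so for *HMGA2*, at 19.1 CPM with at most 3.98 CPM elsewhere, and these 3 genes were chosen after their values were seen. *H19*, a noncoding RNA gene of the *IGF2* imprinted region, had 429 counts in S1-11 and 0 to 6 counts in each of the other 15 tumors, and was not tested because of the count filter. *H19* was also chosen for mention after its values were seen. *PAPPA2*, a protease that cuts IGFBP3 and IGFBP5, reached 490 CPM in S1-11 and at most 6.09 CPM in the others. *PLAG1*, a transcription factor that acts on the *IGF2* promoter, reached 101 CPM there and at most 7.96 CPM elsewhere. The 8 fibroblast markers summed to the highest level in the same tumor, and so did the 12 pericyte and smooth muscle markers at 2156 CPM. Of 7 skeletal muscle markers, 1 passed the filter, and this one, *MYH7*, was called higher in FS than in both other types, where 5.69% of all genes were called higher. It was at 125 CPM in S1-11 and between 2.34 and 3.63 CPM in the other FS. *MYH7* passed the count filter only with S1-11 among the tumors, so its call is not independent of that filter. The sum of the 7 was 862 CPM in S1-11, 418 CPM in S1-07 (PWT), 105 CPM in S2-09 (PWT), and between 2.21 and 7.73 CPM in the other 13 tumors. The part of muscle, fibroblast or smooth muscle RNA in the *IGF2* level of S1-11 was not tested.

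**Figure D3:**
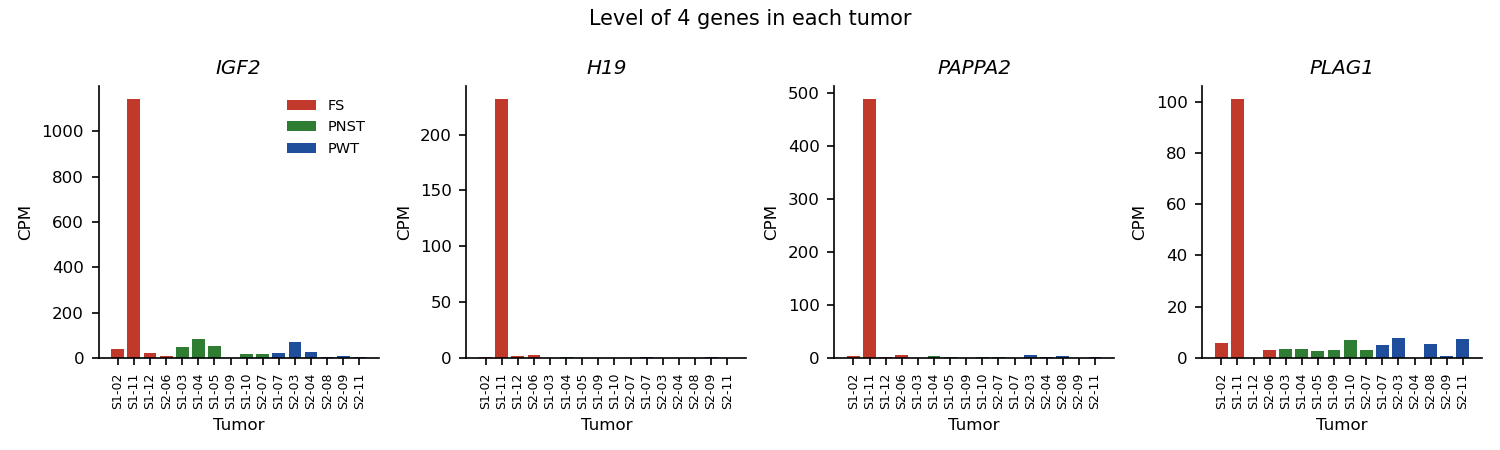
CPM of *IGF2*, *H19*, *PAPPA2* and *PLAG1* in each tumor, as bars from 0 on an axis of its own for each gene. In all 4 panels S1-11 (FS) has the tallest bar, from 101 CPM for *PLAG1* to 1143 CPM for *IGF2*.

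Neither receptor was called by edgeR or DESeq2 in any of the 6 comparisons, and neither had an unadjusted p under 0.05 in edgeR (0 of 12 tests). *IGF1R*, the kinase receptor, was at 162 CPM in S1-02, 138 CPM in S1-11, 136 CPM in S1-12 and 44.9 CPM in S2-06. It ran from 66.6 over 127 to 189 CPM in PNST and from 40.3 over 70.3 to 244 CPM in PWT. The 3 groups overlapped over most of their range, with PWT holding both the lowest (S2-09) and the highest tumor (S2-03). Its log2 fold change in FS against both was 0.0035 ± 0.43 (adjusted p = 0.997) and became -0.049 with upper quartile factors, and it lay between -0.17 (without S1-02) and 0.30 (without S2-06). *IGF2R*, the clearance receptor, was at 330 CPM in S1-02, 330 CPM in S1-11, 69.0 CPM in S1-12 and 233 CPM in S2-06. The PNST ranged from 150 to 271 CPM with a median of 175 CPM, and the PWT from 104 to 262 CPM with a median of 161 CPM. FS held the 2 highest tumors and the lowest one, S1-12, which was also the shallowest. The log2 fold change of *IGF2R* in FS against both was 0.42 ± 0.32 (adjusted p = 0.458).

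Among the binding proteins, *IGFBP4*, whose product inhibits IGF action until PAPPA cuts it, was the one called. Its level was 283 CPM in S1-02, 1124 CPM in S1-11, 368 CPM in S1-12 and 125 CPM in S2-06. PNST ran from 61.0 CPM (S1-05) over 127 CPM to 261 CPM (S1-03), and PWT from 22.8 CPM (S2-11) over 111 CPM to 176 CPM (S2-04). S1-02, S1-11 and S1-12 stood above the other 12 tumors and S2-06 lay among them, while all 4 FS were above their median. *IGFBP4* was called at a log2 value of 1.94 ± 0.47 in FS against both (adjusted p = 0.0128) and 2.19 ± 0.57 against PWT (adjusted p = 0.0191). Against PNST it was 1.73 ± 0.56 and was not called (adjusted p = 0.0702), and PNST against PWT gave 0.46 ± 0.51 (adjusted p = 0.641). *IGFBP4* in FS against PNST was called by DESeq2, and by edgeR without S2-06 (2.07) or S2-11 (1.73), and was at 0.84 without S1-11. Without S1-11 the value in FS against both was 1.06 (adjusted p = 0.191, range over alternatives 0.00247 to 0.191), and against PWT it was 1.31 (adjusted p = 0.132, range 0.0019 to 0.156). With histology groups it was 1.64 against both (adjusted p = 0.109) and 1.95 against PWT (adjusted p = 0.121). *IGFBP4* was also not called with thinned counts in either comparison, nor with no count filter against PWT. It was called in 25 of 28 alternatives in FS against both and in 22 of 27 against PWT. The title prefix as a term gave 1.70 against both (adjusted p = 0.0469) and 1.83 against PWT (adjusted p = 0.156), and within prefix S1 FS against PNST gave 2.10 (adjusted p = 0.0873).

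**Figure D4:**
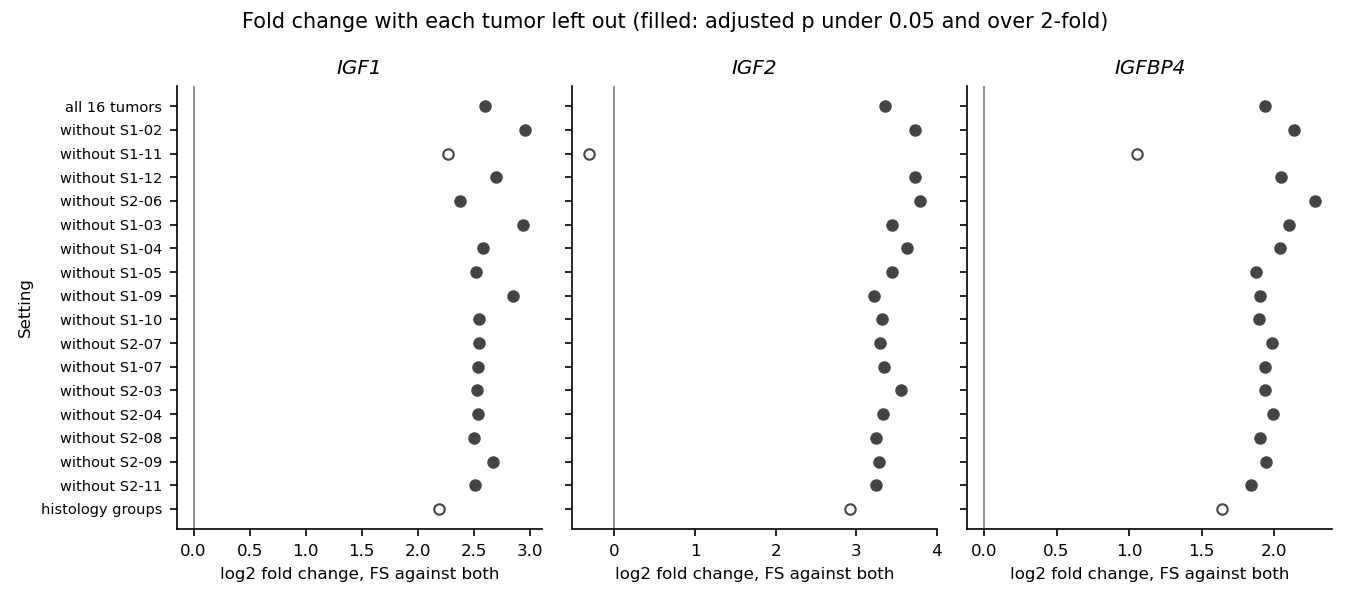
Log2 fold change of *IGF1*, *IGF2* and *IGFBP4* in FS against both other types, on the horizontal axis, with all 16 tumors, with each tumor left out in turn and with histology groups. Filled points were called; without S1-11 the points lay at 2.27, -0.32 and 1.06, and none of these was called.

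*IGFBP2*, which binds IGF2 with preference, had 83 counts in S1-11, 58 in S1-12 and 71 in S1-03 (PNST), and 0 to 8 in the other 13 tumors. In CPM the FS stood at 0.353 (S1-02), 44.8 (S1-11), 105 (S1-12) and 3.75 (S2-06). PNST ran from 0.357 over 1.23 to 19.9 CPM and PWT from 0 over 0 to 1.19 CPM. S1-11 and S1-12 were thus above every other tumor, S1-02 was among the lowest, and the groups overlapped. In the 4 PWT with a count of 0, up to 1.61 to 4.12 CPM could have gone undetected (3 counts). Since 10 counts in 4 tumors were required, *IGFBP2* was not tested. With no count filter it gave 3.62 ± 1.15 in FS against both (adjusted p = 0.0912 over 36420 genes) and 6.27 ± 1.62 in FS against PWT (adjusted p = 0.0441), a fitted value that is no bound. DESeq2 called it in FS against both, at 4.03 ± 1.45 (adjusted p = 0.0475), in FS against PWT, at 6.67 (adjusted p = 0.000861), and in PWT against both, at -5.57 (adjusted p = 0.00641). With S1-04 and S1-05 as 1 tumor it passed the filter, and edgeR called it in FS against both, at 3.72 (adjusted p = 0.0415), and against PWT, at 6.32 (adjusted p = 0.0166). It passed there only with S1-11 and S1-12 among the tumors, so these 2 edgeR calls are not independent of the filter.

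*IGFBP3* encodes the main carrier of IGFs in blood. Its level was 12.4 CPM in S1-02, 32.4 CPM in S1-11, 34.5 CPM in S1-12 and 55.2 CPM in S2-06, against 30.6 over 82.4 to 505 CPM in PNST and 17.9 over 109 to 248 CPM in PWT. All 4 FS lay below the median of the other tumors, but S2-03 (PWT), S1-09 and S2-07 (both PNST) lay within their range, so the groups overlapped. In FS against both its log2 fold change, -2.07 ± 0.75, was not called (edgeR adjusted p = 0.0894), although DESeq2 called it at -2.04 (adjusted p = 0.0166). It was also called without S2-03, at -2.18 (adjusted p = 0.0479, range over alternatives 0.0166 to 0.262).

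*IGFBP5*, a binding protein of bone, muscle and connective tissue that sits beside *IGFBP2* in the genome, had 304 to 10321 counts per tumor. The FS stood at 107 CPM (S1-02), 1645 CPM (S1-11), 557 CPM (S1-12) and 436 CPM (S2-06). PNST ran from 979 CPM (S1-03) over 1558 CPM to 3068 CPM (S1-09) and PWT from 173 CPM (S2-03) over 808 CPM to 1230 CPM (S1-07). All 6 PNST lay above the median of the other 10 tumors and 2 above each of them, with S1-11 of the FS as high as the PNST. In PNST against both, *IGFBP5* was at a log2 fold change of 1.25 ± 0.45, with an unadjusted p of 0.0122, and it was not called (adjusted p = 0.226). FS against PNST gave -1.35 ± 0.60 (adjusted p = 0.182), which was called without S1-11 (-2.27, adjusted p = 0.0371, range over alternatives 0.0371 to 0.399). *IGFBP5* in PNST against PWT was at 1.19 ± 0.52 (adjusted p = 0.218).

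*IGFBP6*, which binds IGF2 more tightly than IGF1, was at 74.2 CPM in S1-02, 44.3 CPM in S1-11, 27.2 CPM in S1-12 and 13.1 CPM in S2-06. It ran from 37.9 over 89.4 to 141 CPM in PNST and from 19.5 over 60.7 to 96.6 CPM in PWT. All 4 FS were below the median of the other tumors, and the groups overlapped. *IGFBP6* had a log2 fold change of 0.82 ± 0.39 in PNST against both (adjusted p = 0.315) and -1.15 ± 0.50 in FS against PNST (adjusted p = 0.179). *IGFBP7*, which binds IGFs weakly and is found in vessel walls, ranged from 49.2 to 274 CPM in FS, from 23.8 to 103 CPM in PNST and from 67.0 to 265 CPM in PWT. Its adjusted p was 0.344 or higher in all 6 comparisons, where the log2 fold changes lay between -0.77 and 0.82. Neither gene was called with any alternative tried.

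A list of 64 other genes of the pathway held 63 that were in the table and 54 that could be tested. In FS against both, 6 of the 54 were called higher and 4 lower, where 9.31% of all genes were called, with a median log2 fold change of -0.019 against 0.0045 over all genes. FS against PNST gave 4 higher and 2 lower (6.93% of all genes called), and FS against PWT 3 higher and 5 lower (11%). DESeq2 called 7 higher and 4 lower in FS against both, 7 and 4 in FS against PNST, and 5 and 6 in FS against PWT. Over all genes it called 2087 of 21238, 1767 of 20642 and 2457 of 19942 in the same order. *PAPPA2* was in none of these calls, and *PLAG1* not in those of FS against both. *GRB14*, which did not pass edgeR's count filter, was called higher in all 3. It was at 3.63 to 15.45 CPM in FS and at most 1.37 CPM elsewhere, and was named after its values were seen. The lowest FS for *GRB14*, S1-12, had 2 counts, under the 3-count floor of 5.45 CPM in that tumor. In the other comparisons edgeR called 0, with 10 genes at an unadjusted p under 0.05 in PNST against both, 18 in PWT against both and 11 in PNST against PWT (2413, 3441 and 3006 of all 15408 genes), where DESeq2 called 0, 1 and 2. By role, among genes tested in FS against both, the calls came from 1 of 5 partners of the growth hormone axis and ligands (lower), 3 of 7 proteases and their inhibitors (2 higher, 1 lower), 3 of 3 tested of 6 regulators of ligand genes or mRNA (higher), 1 of 7 adaptors (higher) and 2 of 28 PI3K-AKT-mTOR genes (lower). Of 4 further receptors, 0 were called. Which regulators could be tested depended in part on FS, since *PLAGL1* and *IGF2BP2* passed the count filter only with FS among the tumors. The 3 of 3 therefore says nothing about regulators as a group. The 10 genes called by edgeR with the smallest p are described here, and the other 3 it called in any comparison were *IGF2BP2*, *PHLPP1* and *RICTOR*, named after their values were seen. Of the 3 regulators, *PLAG1* was at -0.25 without S1-11, and *IGF2BP2* was called in 12 of 23 alternatives, DESeq2 not among them. *PHLPP1* was called in 16 of 28 alternatives in FS against both, and *RICTOR* in 5 of 27 in FS against PWT.

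*DEPTOR*, an inhibitor of the mTOR kinase, was at 72.1 CPM in S1-02, 64.3 CPM in S1-11, 123 CPM in S1-12 and 41.7 CPM in S2-06, against 269 to 380 CPM in PNST (median 315 CPM) and 331 to 644 CPM in PWT (median 467 CPM). *GHR*, the growth hormone receptor, was at 57.3 CPM in S1-02, 87.0 CPM in S1-11, 21.8 CPM in S1-12 and 83.8 CPM in S2-06, against 139 to 270 CPM in PNST (median 188 CPM) and 187 to 356 CPM in PWT (median 262 CPM). For both genes the 4 FS lay below each of the other 12 tumors with no overlap. The share of all genes with no overlap between FS and the others was not counted, here or for *PLAGL1*. In FS against both the log2 fold change was -2.42 ± 0.33 for *DEPTOR* (adjusted p = 0.000309) and -1.88 ± 0.34 for *GHR* (adjusted p = 0.00182). Both were called with each tumor left out. With histology groups, where S2-08 counts as FS, *DEPTOR* gave -1.35 and *GHR* -1.22, and neither was called. Also on the list, all 4 FS lay above the others for *STAT5B*, at 61.8 to 111 CPM against at most 60.7 CPM. Its log2 fold change of 0.86 (edgeR adjusted p = 0.0168) was under the 2-fold limit, and it was named after its values were seen.

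*PLAGL1*, an imprinted transcription factor gene, was at 15.6 CPM in S1-02, 25.9 CPM in S1-11, 20.0 CPM in S1-12 and 37.9 CPM in S2-06. It reached at most 5.57 CPM in PNST and 13.5 CPM in PWT, so that the 4 FS lay above each of the other tumors. *PLAGL1* in FS against both was at 2.63 ± 0.54 on the log2 scale (adjusted p = 0.00425), and at 2.23 with histology groups, where it was not called. Outside FS only S1-04 and S2-03 had 10 or more counts of *PLAGL1*. It thus passed the count filter only through FS, and its test is not independent of that filter. *PAPPA2* stood at 3.89, 490, 1.82 and 6.09 CPM in S1-02, S1-11, S1-12 and S2-06, and between 0 and 5.57 CPM in the other 12 tumors. It gave 5.93 ± 0.95 (adjusted p = 0.00113), which rested on S1-11, as without it the value was 1.04 and not called. Outside FS only S1-04 and S2-03 had 10 or more counts of *PAPPA2*, so it passed the count filter only through FS. *PLAG1*, at 6.01, 101, 0 and 3.28 CPM in S1-02, S1-11, S1-12 and S2-06 and between 0 and 7.96 CPM in the others, gave 2.70 ± 0.72 (adjusted p = 0.0227) and -0.25 without S1-11. It was not called with histology groups (2.48), the title prefix as a term (2.50) or no count filter (2.69) either. *STC1*, an inhibitor of PAPPA and PAPPA2, stood at 39.6, 14.6, 7.26 and 4.68 CPM in the 4 FS and between 0.538 and 8.62 CPM in the others, so that 2 FS were above all others. It gave 1.97 ± 0.51 (adjusted p = 0.0196), or 1.05 without S1-02, where it was not called. The call was also lost with the title prefix as a term (1.79) and with histology groups (1.55).

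*ADAM28*, a protease that cuts IGFBP3, gave -2.49 ± 0.72 in FS against both (adjusted p = 0.0351), with FS between 7.57 and 28.3 CPM, PNST between 36.9 and 124 CPM and PWT between 10.3 and 228 CPM. FS overlapped PWT but not PNST, and the call ended without S1-11, S1-12 or S2-06, at -2.27, -2.35 and -2.43. It also ended with histology groups (-1.36), no count filter (-2.50), thinned counts (-2.35) and without S1-10 and S2-08 (-2.53). *SOS2*, an exchange factor that activates RAS, gave 1.12 ± 0.32 (adjusted p = 0.0281), with 3 of 4 FS above the other tumors. Without S1-02, S1-12 or S2-06 it was not called, at 1.08, 1.05 and 1.01, nor with histology groups (0.88), thinned counts (0.98) or without S1-10 and S2-08 (1.01). *PIK3CA*, the catalytic subunit of PI3K, was called by edgeR in FS against PNST, at 1.23 ± 0.31 (adjusted p = 0.0217), with FS from 46.4 to 76.2 CPM and PNST from 17.2 to 47.0 CPM. Without S1-10 or S1-12 it was not called, at 1.14 and 1.10, nor with histology groups (1.02, or 1.15 without S2-08), thinned counts (1.38) or without S1-10 and S2-08 (1.14). *PIK3CA* in FS against both was at 0.97 (edgeR adjusted p = 0.0353), under the 2-fold limit, and DESeq2 called it. *FOXO1*, a transcription factor held inactive by AKT, was called by edgeR in FS against PWT, at -1.05 ± 0.28 (adjusted p = 0.0194), from a median of 57.1 CPM in FS and 126 CPM in PWT. Its value shrank to between -0.99 and -0.87 without S1-02, S1-12, S2-06 or S2-11, under the 2-fold limit. With the title prefix as a term (-1.06), thinned counts (-1.43) or histology groups (-0.66), its adjusted p in edgeR was above 0.05.

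**Figure D5:**
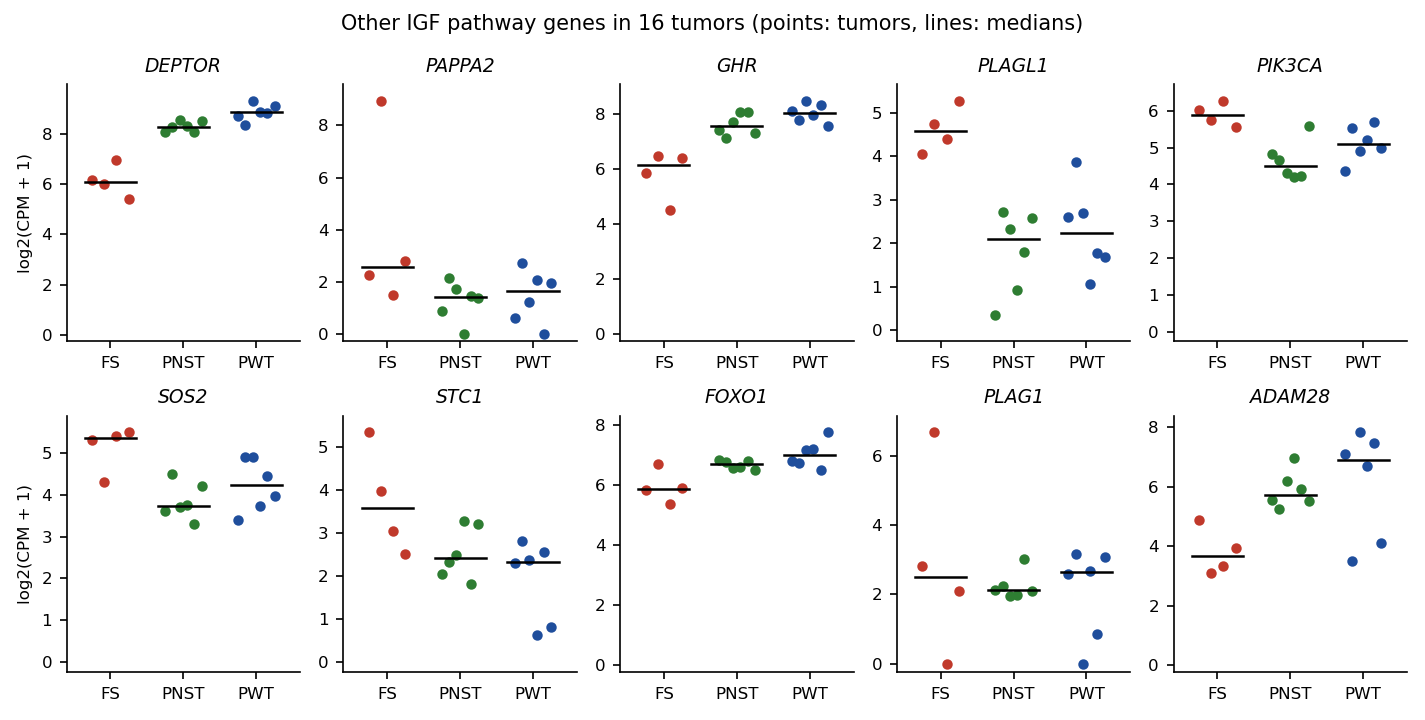
Level as log2(CPM + 1), with 1 point per tumor and a line at the median, of the 10 pathway genes described. The 4 FS points lie below the 12 others for *DEPTOR* and *GHR* and above them for *PLAGL1*, and 1 FS point stands alone for *PAPPA2* and *PLAG1*. The share of all genes with such a split was not counted.

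Genes whose levels followed those of the IGF genes most closely over the 16 tumors were found by Spearman's rho of log2 CPM among the 15408 genes tested, as a description. Highest for *IGF1* were *LOC111090067* (rho 0.94), *EDNRA* (0.91) and *ARSJ* (0.88). *LOC111090067* is a noncoding RNA gene whose span overlaps that of *IGF1* in the RefSeq table of assembly UU_Cfam_GSD_1.0, and since strand use in counting was not given, reads of the pair may not be told apart. For *IGF2* they were *ZDHHC9* (0.91), *SFRP1* (0.88) and *LOC111098273* (0.86). For *IGF1R* they were *LOC102155727* (0.87), *CCBE1* (0.79) and *IRX2* (0.78), and for *IGFBP4* they were *LOX* (0.90), *FKBP7* (0.89) and *TMEM64* (0.88). By the same RefSeq records, 6 of the 10 genes overlapped another gene, among them *IGFBP4* with *LOC106559289* (602 counts over all tumors, against 6816) and *IGFBP7* with *POLR2B* (1861 against 3408). How many reads lay in the shared stretches was not measured.

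Markers of other cells in the tissue were called in few cases. Of 7 endothelial, 6 macrophage, 6 lymphocyte (3 tested) and 7 epidermal markers, edgeR called 0 in any of the 6 comparisons, and DESeq2 called 1 (*TEK*, lower in FS than in both others and than in PWT). Over all genes, edgeR called from 0% in PNST against both to 11% in FS against PWT. In FS against both, 1 endothelial and 1 macrophage marker had an unadjusted p under 0.05. Of 6 adipocyte markers, 5 were tested and edgeR called 1, *LPL*, lower in FS than in PWT, where it called 11% of all genes. DESeq2 called *LPL* there too, and also as lower in FS than in both others and higher in PWT than in both others. Endothelial markers summed to medians of 270 CPM in FS, 345 CPM in PNST and 336 CPM in PWT, and macrophage markers to 397, 343 and 369 CPM. Lymphocyte markers summed to medians of 28.1, 19.3 and 28.1 CPM, with *CD3D*, *CD79A* and *MS4A1* at 0 in at least 1 tumor of each type. Adipocyte markers summed to medians of 50.0 CPM in FS, 84.7 CPM in PNST and 151 CPM in PWT. *LPL* contributed most to this sum in every type, with 404 of 471 CPM in S2-09 and 288 of 296 CPM in S2-08 (both PWT). Of the 5 adipocyte markers tested, 2 had a positive log2 fold change in PWT against both (median -1.34). In FS against PWT, 3 of the 5 had a positive one (median 0.85), so most markers did not follow the sum. Epidermal markers summed to 1488 CPM in S1-02 and 882 CPM in S1-12 among FS, 964 CPM in S1-04 and 1361 CPM in S1-05 among PNST and 1156 CPM in S2-03 among PWT, and to between 4.12 and 111 CPM in the other 11 tumors. The tumors with high epidermal sums were thus found in all 3 types. *IGF1* was at 44.5 CPM in S1-02 and at 221 CPM in S1-12, which both had high epidermal sums. In the same order, *IGF2* was at 39.9 and 23.6 CPM and *IGFBP4* at 283 and 368 CPM. The part of these cells in the levels of the IGF genes was not tested.

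The comparisons rest on 4 to 6 tumors per type, on groups drawn partly from the same expression data, and on title prefixes spread unevenly over the types, so that prefix and type cannot be fully told apart. A p-value above the threshold does not show that levels were alike, and no protein was measured.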

How the data were processed

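RNA-seq was carried out on 16 tumors. The authors aligned reads to ROS-canfam-01 with STAR and deposited raw counts per gene from htseq-count, with no strand setting given in the sources used here. Runs of a tumor (3 for prefix S1, 1 for prefix S2) were summed. Tumors were grouped by the labels' molecular identity. With edgeR 4.0.16 in R 4.3.3, TMM factors were computed, genes reaching 10 counts in 4 or more tumors (15408) were kept, and quasi-likelihood tests compared each type with both others pooled, or types pairwise in a model with 1 mean per type. P-values were adjusted over all genes tested (Benjamini-Hochberg), and a call needed adjusted p under 0.05 and more than a 2-fold change either way. The standard error is the log2 fold change over the root of F. P-values set the difference between groups against the spread between tumors, of which S1-04 and S1-05 may be from 1 dog. Alternatives were other scalings, no count filter, DESeq2 1.42.0, histology groups, 2 regrouped tumors or single tumors left out, the title prefix as a term or prefix S1 alone, S1-04 and S1-05 as 1 tumor, 1 mean per type, counts thinned to 507728 per tumor, and adjusted p alone. All 10 genes, pathway genes called (up to 10 by smallest p) and the 3 genes most alike for *IGF1*, *IGF2*, *IGF1R* and called members were named by rule. Members and lists were chosen with earlier results of these data known. Intervals and the 3-count floor cover counting error only.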

Additional observations from a re-analysis of the deposited data

Results flagged for a closer look

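In 5 of 30 combinations of an IGF gene and a tumor type, 1 tumor lay far above the others of its type, judged by its gap to the nearest tumor as a share of the range (Dixon's 95% limit). Chance gives about 1 in 20 for normally spread values. CPM was not log-transformed and all 5 tumors lay on the high side, so that rate may not hold here. *IGF2* stood at 1143 CPM in S1-11 (FS), where the other 3 FS had 7.96 to 39.9 CPM, and at 69.2 CPM in S2-03 (PWT), where the other 5 PWT had 3.23 to 24.7 CPM. *IGF1* stood at 75.7 CPM in S2-09 (PWT), against 10.8 to 22.3 CPM in the other PWT. S1-03 (PNST) was high for *IGFBP2* at 19.9 CPM, against 0.357 to 2.88 CPM in the other PNST, and for *IGFBP3* at 505 CPM, against 30.6 to 176 CPM. In S1-11 the fitted fold change of *IGF2* in FS rested on this tumor, and S1-03 was the deepest library at 4311876 counts. The cause of these values was not tested.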

How the results depend on the processing

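In FS against both other types, 3 IGF genes were called. RLE and upper quartile factors, 1 mean per type and adjusted p alone gave 3, and DESeq2 gave 4 without *IGF2*. The title prefix, no count filter and leaving out S1-10 and S2-08 gave 2, each without *IGF2*, S1-04 and S1-05 as 1 tumor gave 4, histology groups 0, thinned counts 1 (*IGF1*), and tumors left out 0 to 4, with 0 without S1-11. Histology groups without S2-08, an alternative chosen after seeing the data, gave 3, but for FS against both this is the same set of tumors and groups as leaving out S2-08 alone. In FS against PWT, 2 were called, and 0 with histology groups, 1 with the title prefix, 1 with thinned counts, 3 with DESeq2, 3 with S1-04 and S1-05 as 1 tumor, 2 with no count filter (*IGF1* and *IGFBP2*) and 1 to 3 with tumors left out. FS against PNST went from 0 to 3 with DESeq2 and to 0 to 1 with tumors left out. PWT against both went from 0 to 2 with DESeq2 and to 1 with 1 mean per type. PNST against both and PNST against PWT stayed at 0 with every alternative. Without S1-11, *IGF2* reversed to -0.32 in FS against both (highest 3.80, without S2-06) and to -0.62 against PNST (highest 3.50, without S1-04), *IGF2* in PNST against both went from -1.88 to 0.68 (0.67 with DESeq2), and *PLAG1* to -0.25 in FS against both (highest 3.11, without S2-06). The causes were not tested.

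Calls over all genes moved too. FS against both had 1435, and 202 with histology groups, 304 thinned and 887 without S1-11. PNST against both had 0 (2413 genes at an unadjusted p under 0.05), and 290 with DESeq2, 164 with 1 mean per type, 12 with no filter, 1 thinned and up to 3 with a tumor left out. PWT against both had 310 (205 higher), and 880 with DESeq2 (421 higher), 839 with 1 mean per type, 177 with no filter, 106 without S1-10 and S2-08, 64 thinned, 0 with histology groups (also without S2-08) or the prefix, and 11 to 478 with a tumor left out. FS against PNST had 1068, and 1767 with DESeq2, 616 without S1-10 and S2-08, 606 with histology groups without S2-08, 499 within prefix S1, 161 thinned, 0 with histology groups and 644 without S1-10. FS against PWT had 1696, and 862 with the prefix, 378 thinned, 5 with histology groups and 1039 without S1-11. PNST against PWT had 10, and 519 with DESeq2, 29 with no filter, 0 with 6 other alternatives and 0 to 213 with a tumor left out. DESeq2's median log2 fold change over all genes was 0.11 in FS against both and -0.33 in PNST against both, against 0.0045 and -0.063 with edgeR.

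Of 34 fold changes of IGF genes with an unadjusted p of at least 0.05, 14 changed sign in some alternative and 0 were called in any. No paired analysis was possible because tumors were numbered in accession order and share no pairing across types. Low counts limit *IGFBP2* most, at 0 to 8 in 13 tumors.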
